A study of Mus musculus with 10 samples.

Results

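The expression of 6 long noncoding RNA genes, Malat1, Neat1, Gas5, Snhg1, Snhg12 and Dleu2, was compared between metastasis-associated macrophages (MAMs) and resident alveolar macrophages (RAMs) of the mouse lung. They were 6 of 24538 genes in the count data, and all 6 were among the 11571 genes that passed the filter on low values. These genes were chosen by name and selected on their known difference between MAMs and RAMs, measured as a share of gene counts without Rn45s, the ribosomal RNA precursor. Shares are given as CPM, counts scaled to a total of 1000000 gene counts without Rn45s. Their differences between MAMs and RAMs are therefore given as descriptions, without a test. The genes are known as nuclear RNAs or as hosts of small nucleolar RNAs or microRNAs, but RNA was taken from whole cells, so the place of each RNA in the cell was not measured.

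RNA-seq was performed on 5 MAM and 5 RAM libraries from wild type C57BL6/J mice aged 8 to 10 weeks. For MAMs, E0771-LG cells, a mouse mammary tumor line of the same strain, were injected into the tail vein of female mice, and small metastases were dissected from the lungs and pooled from 2 to 4 mice for a sample. For RAMs, normal lungs without tumor cells were used. Both groups were digested in the presence of the transcription inhibitors alpha-amanitin and actinomycin D and sorted as CD45+F4/80+LY6C-MRC1+FSC hi macrophages, MAMs as CD11B+CD11C- cells and RAMs as CD11C+CD11B- cells. The groups differ in the tissue and in the sorting gate at once, so the effect of metastasis and the difference between these macrophage types cannot be told apart. The cell line and the vein injection represent seeded lung colonies, not spread from a primary tumor. In these sorted pools, fewer cells of a type and less RNA per cell cannot be told apart either.

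The sorted cells carried the markers of their labels. Itgam, which encodes CD11B, was higher in MAMs with a log2 fold change of 6.61, and Itgax, which encodes CD11C, was lower with a log2 fold change of -2.54 (edgeR, adjusted p of 1.74e-16 and 2.72e-10). Both proteins were used for the sort, so the direction of these genes follows from it and is no separate evidence of identity. Alveolar macrophage markers summed to 238 to 491 CPM in MAM libraries, against 9473 to 12360 in RAM libraries, and monocyte-derived markers to 8191 to 8619, against 128 to 137. Most of the latter sum was Itgam, the gene of the sorting gate, and the other 6 monocyte-derived markers summed to 2406 to 2882 in MAMs and 54.9 to 70.1 in RAMs. Among lists named for other cells, an epithelium and tumor list of 7 genes summed to 15.1 to 23.1 in MAMs and 643 to 786 in RAMs, with Krt19 as its most abundant gene. Whether these counts came from other cells or from the sorted macrophages themselves cannot be told from a sum. A list of 4 endothelium genes summed to 19.4 to 87.0 in MAMs and 2.01 to 13.1 in RAMs, and a list of 5 fibroblast genes to 3.17 to 36.3 and 0.292 to 6.36. A list of 6 neutrophil genes, led by Csf3r, summed to 109 to 275 in MAMs and 112 to 177 in RAMs. T and NK cell genes stayed at or below 5.15 and B cell genes at or below 20.0 in every library. A list of 4 erythrocyte genes summed to 2.04 to 4.71 in MAMs and 1.35 to 5.70 in RAMs. This sum was all Alas2, as the hemoglobin genes Hba-a1, Hbb-bs and Hbb-bt had no counts. The part of these other cells in the results was not tested. Each library held between 43892257 and 75032981 gene counts without Rn45s, which itself took 12.1% to 15.2% of gene counts. Reads outside annotated genes made up 40.7% ± 2.08 of all counts, assigned to a gene or not, in MAMs and 49.8% ± 1.02 in RAMs (SD, n = 5 each). Their part in the results was not tested either, but values with these reads in the denominator are given for each gene.

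Malat1 is an abundant RNA of nuclear speckles, bodies that store splicing factors, and Neat1 is the scaffold RNA on which paraspeckles, neighboring nuclear bodies, are built. Malat1 and the long form of Neat1 are cut by RNase P in place of ordinary polyadenylation, and a triple helix of U-rich and A-rich stretches protects the new end, while the short form of Neat1 is polyadenylated. Gas5, Snhg1 and Snhg12 are hosts of small nucleolar RNAs (snoRNAs), which are released from their introns and guide chemical modification of ribosomal and spliceosomal RNA, while the spliced host RNA is often removed by nonsense-mediated decay. Dleu2 is the host of the microRNAs miR-15a and miR-16-1, which restrain the cell cycle and survival genes.

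On the GRCm38 build, Malat1 was annotated at chr19:5795690-5802672 and Neat1 at chr19:5824708-5845478, both on the minus strand. Neither overlapped another gene with counts. Snhg1 lay on the same chromosome at chr19:8723475-8726443 on the plus strand. Gas5 was at chr1:161034422-161038539 and Snhg12 at chr4:132308623-132311024, both on the plus strand, and Dleu2 at chr14:61602839-61682373 on the minus strand. An exon of Gas5 overlapped Zbtb37, and an exon of Dleu2 overlapped Trim13, each on the opposite strand. The strand setting of the counting is not given in the sources used here, so reads at these overlaps cannot be assigned to a strand.

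The 3′ ends of Malat1 and Neat1 are shown because they hold a set of runs that was found in no other annotated gene. The last 400 bases of their longest transcripts (GENCODE, GRCm38) had 3 runs of at least 10 identical bases in common, in the same order, and these runs are in capitals. Each line is 100 bases of the transcript strand, at chr19:5795982-5796081 for Malat1 and chr19:5824708-5824807 for Neat1, both on the minus strand.
Malat1: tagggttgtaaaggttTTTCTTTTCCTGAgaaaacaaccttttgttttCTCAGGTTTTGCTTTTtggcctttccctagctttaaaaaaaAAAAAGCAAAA
Neat1: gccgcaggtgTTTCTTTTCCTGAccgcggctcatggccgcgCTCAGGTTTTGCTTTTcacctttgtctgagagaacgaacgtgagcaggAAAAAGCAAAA
The Neat1 window ended with the annotated transcript, and 292 bases followed the Malat1 window. Of 55341 genes with a transcript, 21 (0.0379%) held TTTCTTTTCCTGA, 376 (0.679%) held AAAAAGCAAAA and 2 (0.00361%) held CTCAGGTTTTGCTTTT, searched on the transcript strand only. These 2 genes were Malat1 and Neat1, from which the runs were taken.

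Malat1 took the largest or the second largest share of counts of any gene in each of the 10 libraries. Its share was 19991, 22939, 25630, 28452 and 23036 CPM in MAMs 1 to 5 and 11551, 12993, 12721, 12458 and 13220 in RAMs 1 to 5. Every MAM library was above every RAM library. Malat1 took 2.40% of gene counts in MAMs and 1.26% in RAMs, with means of 24009 ± 3186 and 12589 ± 647 CPM (SD, n = 5 each), a ratio of 1.91 or a log2 ratio of 0.93. The MAM libraries also varied more, with a coefficient of variation of 13.3% against 5.14% in RAMs, while counting error alone was 0.0990%. Malat1 was the only one of the 6 genes whose shares did not overlap between groups, where 48.1% of all genes tested did not overlap. Frmd8, a partner of the iRhom proteins, is the nearest protein-coding gene on the higher-coordinate side, 47029 bases from Malat1. Neat1 lies between them, 4223 bases from Frmd8. Frmd8 had a log2 fold change of -0.07 and did not pass the test (edgeR, adjusted p = 0.728).

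**Figure D1:**
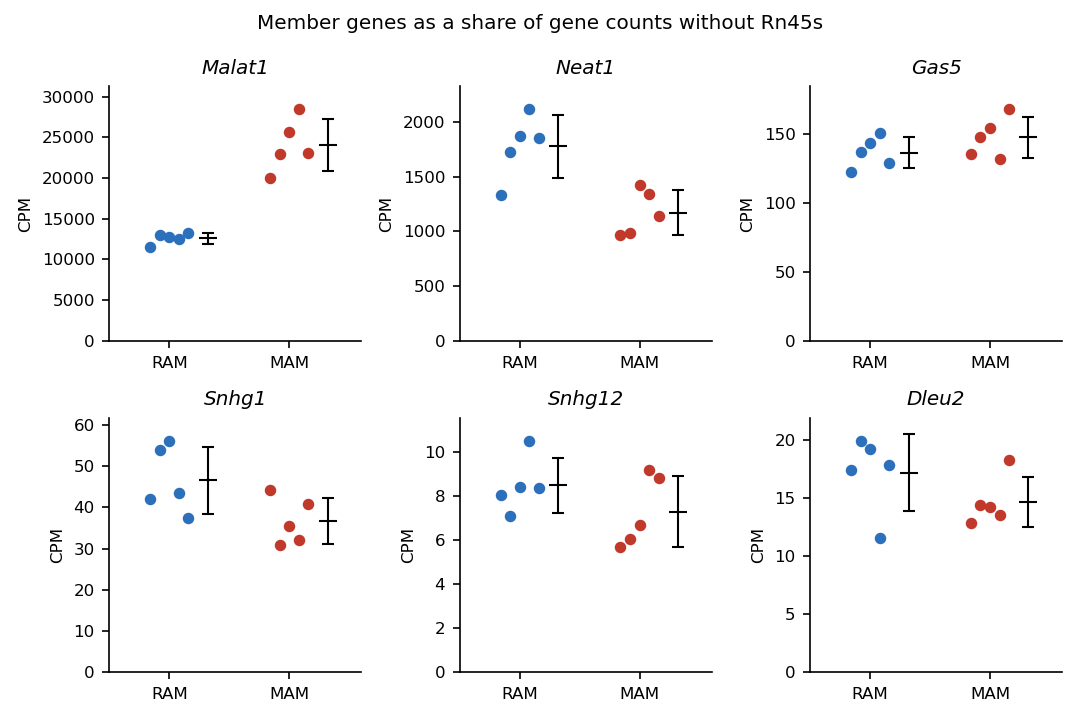
Share of each gene in CPM without Rn45s (vertical axes, starting at 0) in the 5 RAM (blue) and 5 MAM (red) libraries, in the order of their replicate numbers, with the mean and SD of each group as a black bar. The MAM libraries lie between 19991 and 28452 for Malat1, all above the RAM libraries, and the groups overlap for the other 5 genes.

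Neat1 was lower in MAMs by its share of counts. It had 964, 984, 1424, 1342 and 1138 CPM in MAMs 1 to 5 and 1331, 1726, 1871, 2116 and 1848 in RAMs 1 to 5. RAM replicate 1 was the lowest RAM library, below MAM replicates 3 and 4, and the other 4 RAM libraries were above all MAM libraries. The means were 1171 ± 208 in MAMs and 1778 ± 287 in RAMs (SD, n = 5 each), with a log2 ratio of -0.60. Among all genes, Neat1 ranked from 61 to 113 in MAMs and from 27 to 50 in RAMs. Its coefficient of variation was 17.7% in MAMs and 16.2% in RAMs, where the 120 genes within 2-fold of its level had a median of 7.28% and 7.16%. With Malat1 and Neat1 moving apart, there were 20.7 ± 1.91 Malat1 counts for each Neat1 count in MAMs and 7.21 ± 1.02 in RAMs (SD, n = 5 each). This ratio does not depend on library scaling, and it ran from 18.0 to 23.3 in MAMs and from 5.89 to 8.68 in RAMs without overlap.

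The direction of Neat1 was opposite on the FPKM scale of the authors, which relates fragments to transcript length and to all mapped fragments. The FPKM of Neat1 was 93.0, 125, 131, 155 and 124 in MAMs 1 to 5 and 91.0, 95.9, 102, 111 and 91.6 in RAMs 1 to 5. MAM replicate 1 lay within the RAM range, and the other 4 MAM libraries were above it. The mean FPKM was 126 ± 22.3 in MAMs and 98.3 ± 8.31 in RAMs (SD, n = 5 each), a log2 ratio of 0.35. Malat1 was higher in MAMs on both scales, with a mean FPKM of 3273 ± 394 and 1442 ± 74.6 (SD, n = 5 each) and a log2 ratio of 1.18.

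Counts and FPKM differ in that Cufflinks divides by the length of the transcripts to which it assigns the fragments, whereas a count is a count over the whole gene. The share divided by the FPKM therefore grows with transcript length, and it was turned into an implied length in bases with 491 protein-coding genes that have a single annotated transcript. For Neat1, the implied length was 11982, 9198, 12144, 9614 and 10185 bases in MAMs 1 to 5 and 13927, 17564, 18020, 18904 and 20079 bases in RAMs 1 to 5. All RAM libraries were above all MAM libraries. The means were 10625 ± 1360 and 17699 ± 2317 bases (SD, n = 5 each), a log2 ratio of -0.74, and only 0.511% of 9197 genes had a larger absolute log2 ratio in this measure. The annotated transcripts of Neat1 include a short one of 3004 bases and a long one of 20771 bases, which is known as the form that builds paraspeckles. Reads along the gene were not analysed here, so whether the mix of these transcripts differed was not tested.

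The implied length of Malat1 was 8293 ± 56.1 bases in MAMs and 8549 ± 153 in RAMs (SD, n = 5 each), a log2 ratio of -0.04. For the calibration genes, the middle 90% of log2 ratios lay between -0.11 and 0.09. The ratio of implied to annotated length was between 0.446 and 1.62 for the middle 90% of these genes, so that the measure compares groups better than it gives a length. Snhg1 was the other gene without overlap, with 651 ± 70.1 bases in MAMs and 870 ± 72.4 in RAMs (SD, n = 5 each). Its log2 ratio was -0.42, exceeded by 1.51% of genes, which is again a description. Gas5, Snhg12 and Dleu2 had log2 ratios of -0.02, 0.05 and -0.14 and overlapped between groups.

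**Figure D2:**
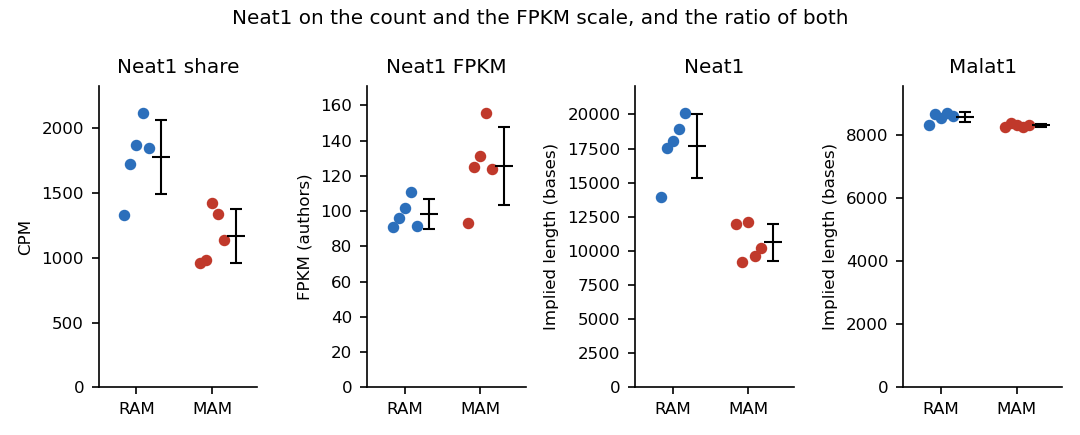
Neat1 by share of counts, by FPKM and by implied length in bases, and Malat1 by implied length (vertical axes, starting at 0) in the 5 RAM (blue) and 5 MAM (red) libraries, with mean and SD in black. Neat1 is lower in MAMs by share, higher by FPKM, and its implied length ranges from 9198 to 12144 bases in MAMs and from 13927 to 20079 in RAMs, while Malat1 stays near 8293 and 8549 bases.

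The snoRNA hosts and Dleu2 are shown by the bases around their annotated starts, because snoRNA hosts are known, like ribosomal protein genes, for a run of C and T at the first base of the RNA. Each line holds 60 bases of the transcript strand (RefSeq, GRCm38.p6), in which the annotated start is the 31st base, and capitals mark the longest unbroken run of C and T that came within 5 bases of the start. The windows were chr1:161035136-161035195 for the second annotated start of Gas5, chr19:8723457-8723516 for Snhg1, chr4:132308648-132308707 for Snhg12 and, on the minus strand, chr14:61682344-61682403 for Dleu2.
Gas5: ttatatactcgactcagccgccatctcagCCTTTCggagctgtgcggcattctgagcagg
Snhg1: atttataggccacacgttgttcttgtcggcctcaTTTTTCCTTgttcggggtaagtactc
Snhg12: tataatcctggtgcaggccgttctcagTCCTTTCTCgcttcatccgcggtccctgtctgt
Dleu2: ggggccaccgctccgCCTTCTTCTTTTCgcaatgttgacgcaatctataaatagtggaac
The runs were 6, 9, 9 and 13 bases long, and that at the first annotated start of Gas5 was 3. Those shown for Gas5 and Snhg12 covered the annotated start. The Snhg1 run began at base 5 of the RNA. The Dleu2 run began 15 bases before the start and ended before it, so it lay outside the annotated RNA. Malat1 had a run of 4 bases, and the annotated starts used here held no entry for Neat1. A run of at least 8 bases was found at 9.38% of all 32851 annotated starts, at 37.7% of 61 starts of the ribosomal protein genes tested and at 10.0% of 10 starts of the other snoRNA hosts tested. A run of letters is a description of the window and no sign of regulation.

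Gas5, the first of the snoRNA hosts, had 136, 148, 154, 131 and 168 CPM in MAMs 1 to 5 and 122, 137, 144, 150 and 129 in RAMs 1 to 5. The groups overlapped over most of their range. The means of 147 ± 14.6 and 136 ± 11.2 (SD, n = 5 each) gave a log2 ratio of 0.11, which is less than the spread between replicates. On the FPKM scale, Gas5 was 39.7 ± 4.78 in MAMs and 31.2 ± 2.52 in RAMs (SD, n = 5 each), a log2 ratio of 0.35. Even there the lowest MAM library, at 33.8, was below the highest RAM library, at 34.1.

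Snhg1 had 44.1, 30.9, 35.5, 32.2 and 40.8 CPM in MAMs 1 to 5 and 41.9, 53.9, 56.2, 43.4 and 37.3 in RAMs 1 to 5. RAM replicates 2 and 3 were above all MAM libraries and the others lay among them. The means were 36.7 ± 5.65 and 46.5 ± 8.11 (SD, n = 5 each) with a log2 ratio of -0.34. As with Neat1, the order turned on the FPKM scale, where Snhg1 was 64.0 ± 10.2 in MAMs and 52.7 ± 10.2 in RAMs, a log2 ratio of 0.28. The groups overlapped on both scales.

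Snhg12 had 5.67, 6.07, 6.68, 9.21 and 8.81 CPM in MAMs 1 to 5 and 8.04, 7.11, 8.43, 10.5 and 8.38 in RAMs 1 to 5, from 312 to 661 counts in a library. MAM replicates 4 and 5 lay within the RAM range and the other 3 below it. The means of 7.29 ± 1.62 and 8.50 ± 1.25 (SD, n = 5 each) gave a log2 ratio of -0.22, less than the spread between replicates. By FPKM, the log2 ratio was -0.07.

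Dleu2 had 12.8, 14.4, 14.3, 13.5 and 18.3 CPM in MAMs 1 to 5 and 17.4, 19.9, 19.2, 11.5 and 17.8 in RAMs 1 to 5. One library of each group ran against the others, MAM replicate 5 as the highest of its group and RAM replicate 4 as the lowest of all 10. The means of 14.7 ± 2.11 and 17.2 ± 3.31 (SD, n = 5 each) gave a log2 ratio of -0.23, and the FPKM gave 0.12. On both scales, the difference of the means was smaller than the SD of the RAM libraries.

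The scaling decided the sign of several of these small differences. A share is relative to all other gene counts, and without normalization factors the median gene tested had a log2 fold change of -0.24, against -0.02 with TMM factors, which assume that most genes do not differ. The log2 ratio of Malat1 was 1.15 with TMM factors and 1.23 with reads outside genes in the denominator. That of Neat1 was -0.39 and -0.30. Gas5 was at 0.33 and 0.42. Snhg1 came to -0.12 and -0.02, Snhg12 to -0.00 and 0.08, and Dleu2 to -0.01 and 0.08. Thus the sign was the same under each of these count scalings for Malat1, Neat1, Gas5 and Snhg1 and turned for Snhg12 and Dleu2, and Neat1 and Snhg1 turned on the FPKM scale.

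**Figure D3:**
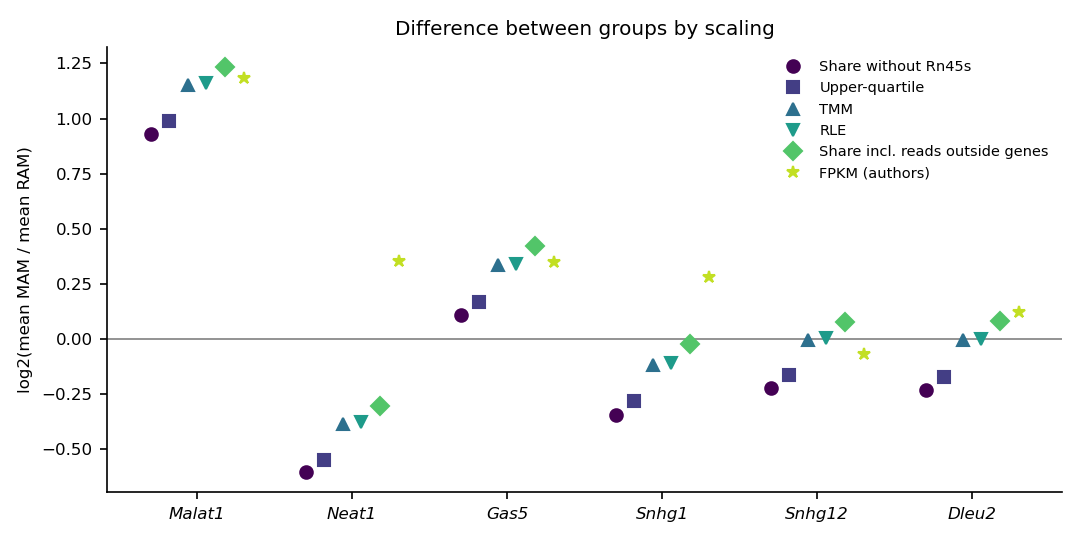
The log2 ratio of the MAM mean to the RAM mean (vertical axis) of each gene under 6 scalings, one symbol each, with a grey line at 0. Malat1 lies between 0.93 and 1.23 and Gas5 above 0 throughout, Neat1 is below 0 by counts and at 0.35 by FPKM, and Snhg12 and Dleu2 lie on both sides of 0.

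Per length, the 6 genes could be set in an order. By FPKM, the order was Malat1, Neat1, Snhg1, Gas5, Snhg12 and Dleu2 in both groups, and the ranges of neighbors over the 5 libraries of a group did not overlap. Malat1 was 26.1 times as high as Neat1 in MAMs and 14.7 times in RAMs, and Neat1 was 1.96 and 1.87 times as high as Snhg1. Dleu2, the last, had a mean FPKM of 5.16 ± 0.798 in MAMs and 4.74 ± 0.855 in RAMs (SD, n = 5 each). When the share was divided by the kilobases covered by all annotated exons, Gas5 came before Snhg1, with 39.2 ± 3.89 against 12.4 ± 1.90 CPM per kilobase in MAMs and 36.3 ± 2.97 against 15.7 ± 2.73 in RAMs (SD, n = 5 each). On this scale Malat1 was 61.0 times as high as Neat1 in MAMs and 21.1 times in RAMs, and Neat1 was 4.56 and 5.46 times as high as Snhg1. The order of Gas5 and Snhg1 and the size of these ratios thus depend on which transcripts are taken for the length.

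The small RNAs inside the hosts were read as counts per library, without a test. Of the small RNAs annotated within a host, 1 of 9 in Gas5, 1 of 8 in Snhg1, 4 of 4 in Snhg12 and both in Dleu2 were in the count data. For the snoRNAs, groups overlapped in each case. Snord47 within Gas5 had 66 to 157 counts in MAMs and 34 to 102 in RAMs, and Snord22 within Snhg1 had 63 to 394 and 122 to 298. The 4 snoRNAs within Snhg12 ranged from 0 to 89 counts. Reads of a small RNA and of the unspliced host around it cannot be told apart.

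Reads at the Mir16-1 hairpin inside Dleu2 were fewer in each MAM library than in any RAM library. Mir16-1 at chr14:61631880-61631972, which lies in an exon of a Dleu2 transcript, had 4, 9, 8, 9 and 2 counts in MAMs 1 to 5 and 48, 37, 15, 31 and 43 in RAMs 1 to 5. Mir15a at chr14:61632027-61632110, in an intron, had 2, 8, 9, 25 and 2 counts in MAMs and 16, 25, 15, 38 and 54 in RAMs. The groups did not overlap for Mir16-1 and overlapped for Mir15a, where 48.1% of all genes tested did not overlap by share. For each 1000 Dleu2 counts there were 8.17 ± 4.48 Mir16-1 counts in MAMs and 42.7 ± 18.0 in RAMs, and 11.7 ± 12.0 and 39.4 ± 28.9 Mir15a counts (SD, n = 5 each). On this ratio to the host, Mir16-1 again did not overlap between groups and Mir15a did. The libraries were not made for small RNA, and these reads come from a locus, not from mature microRNAs. The mature 5p microRNAs of both hairpins (RefSeq, GRCm38.p6) are shown because they have the same seed, bases 2 to 8, given in capitals.
mmu-miR-16-5p: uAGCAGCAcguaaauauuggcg
mmu-miR-15a-5p: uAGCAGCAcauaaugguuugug
Both thus share the seed AGCAGCA, and the level of the mature forms was not measured.

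**Figure D4:**
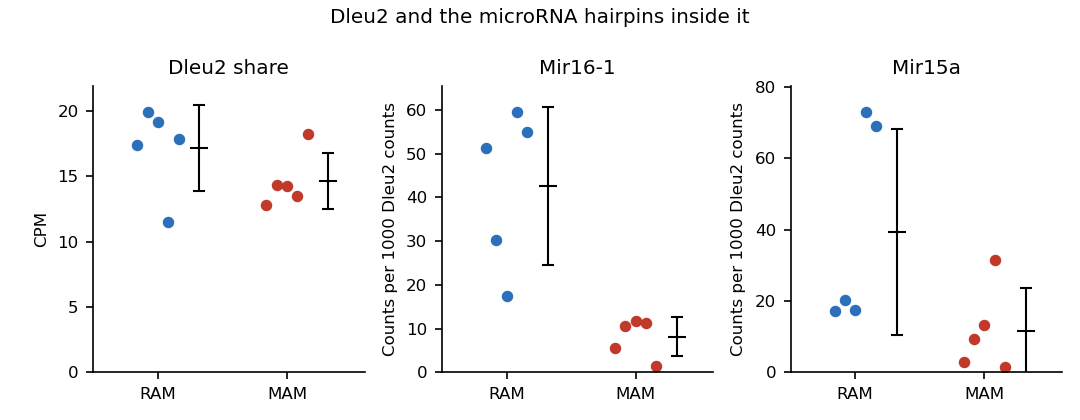
Share of Dleu2 in CPM, and counts of Mir16-1 and Mir15a for each 1000 Dleu2 counts (vertical axes, starting at 0) in the 5 RAM (blue) and 5 MAM (red) libraries, with mean and SD in black (the lower SD bar of Mir15a in MAMs runs below 0 and is not drawn past the axis). The Dleu2 shares overlap, while Mir16-1 ranges from 1.46 to 11.8 in MAMs and from 17.5 to 59.5 in RAMs.

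Among replicates, after the mean of each group was removed, the log2 shares of Malat1 and Neat1 had a Pearson r of 0.75 over the 10 libraries. The libraries with more Malat1 thus tended to have more Neat1, although the group means went apart. All other pairs of the 6 genes had an r between -0.38 and 0.57. Of 11012 genes, those most like Malat1 in this way were Dtx4, Mertk and Elf2, with an r of 0.95, 0.94 and 0.93, and those most like Neat1 were Fam63b, Rps6kb1 and Sp2, with an r of 0.97, 0.95 and 0.94. For Gas5 they were Pgam1, Gcsh and Ddx51 (0.95, 0.89 and 0.89), for Snhg1 Scyl2, Slc25a51 and Pank3 (0.92 each), for Snhg12 Sec22c, Csrp2bp and Slc44a2 (0.96, 0.93 and 0.93), and for Dleu2 Thumpd2, Hist1h2bc and 0610012G03Rik (0.93, 0.92 and 0.92). These values describe 10 libraries that share their depth and total counts with every gene, and the highest of so many are high by choice.

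Other genes of the same kinds were then set beside the 6, with edgeR's quasi-likelihood test over all genes tested. Of the 11571 genes, 56.2% were called at an adjusted p under 0.05, 28.9% as higher in MAMs and 27.3% as lower. Without normalization factors this split of 3344 higher and 3160 lower became 2568 and 4452, and with upper-quartile factors 2745 and 4072.

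Of 12 other snoRNA hosts tested, 1 was higher, 1 was lower and 10 did not pass, with a median log2 fold change of 0.11. Zfas1 had 21.4, 23.4, 31.5, 25.3 and 18.6 CPM in MAMs 1 to 5 and 8.12, 12.2, 12.3, 10.1 and 8.45 in RAMs 1 to 5. It was higher in MAMs without overlap, with a log2 fold change of 1.45 ± 0.193 (SE, edgeR, adjusted p = 1.14e-05). Snhg9 had no counts in the 5 MAM libraries and at most 25 in a RAM library, and its call was lost with DESeq2, with limma and with the replicate number as a block. Snhg5 and Snhg8, with log2 fold changes of -0.07 and 0.25, did not pass the test (edgeR, adjusted p of 0.821 and 0.35).

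Of 25 other long noncoding RNAs tested, 8 were higher in MAMs, 8 were lower and 9 did not pass, with a median of -0.24. Kcnq1ot1, the antisense RNA that silences an imprinted gene cluster, had 195, 201, 182, 141 and 164 CPM in MAMs 1 to 5 and 1062, 1202, 1197, 1336 and 1082 in RAMs 1 to 5. It was lower in MAMs without overlap, with a log2 fold change of -2.51 ± 0.111 (SE, edgeR, adjusted p = 4.4e-11), a larger absolute change than the 1.15 of Malat1 in the same fit. Kcnq1, the gene on the other strand and chosen after its values were seen, had 6.63 ± 3.29 CPM in MAMs and 0.0380 ± 0.0283 in RAMs (SD, n = 5 each). Without a known strand setting, reads of this pair cannot be told apart where they overlap. Xist, which coats the inactive X chromosome and had the largest share of the list, was at 2356 ± 117 and 3276 ± 237 CPM (SD, n = 5 each), with a log2 fold change of -0.25 (edgeR, adjusted p = 0.003). Ptgs2os2, Hotairm1 and Bvht were called higher, with shares of 0.747 to 7.52 CPM in MAMs and at most 0.112 in RAMs, and Hotairm1 lost its call with limma. Among the called genes, these 3, Airn and Mir155hg reached a mean FPKM of 1 in MAMs only, and Lockd and Firre in RAMs only. The direction of their calls was thus largely set by the filter. Tug1, at 138 and 153 CPM, did not pass the test.

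Of the proteins that go with Neat1 in paraspeckles, 24 were tested, and 2 were higher in MAMs, 5 were lower and 17 did not pass, with a median log2 fold change of -0.02. Sfpq, which binds Neat1 and is required for paraspeckles, was lower with a log2 fold change of -0.30 ± 0.0751 (SE, edgeR, adjusted p = 0.00339). Zc3h6 was lower with -1.32 and Aqr, a helicase of the spliceosome, with -0.45, and Ewsr1, an RNA-binding protein, was higher with 0.48, each with an adjusted p below that of Sfpq. Smarca4, a chromatin remodeler, was at 0.10 and did not pass. With upper-quartile factors 2 were higher and 11 lower, and without factors 1 was higher and 13 were lower.

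Of 31 genes for nuclear speckle and SR splicing proteins, the bodies where Malat1 resides, 1 was higher in MAMs, 6 were lower and 24 did not pass, with a median of -0.11. Son, a core protein of the speckles, was higher with a log2 fold change of 0.34 ± 0.0637 (SE, edgeR, adjusted p = 0.000283), and this call was lost without normalization factors. Srrm2, the other core protein, was lower with a log2 fold change of -0.20. The splicing factors Srsf4 and Srsf6 were lower, with -0.69 and -0.47, and Srsf2 was at -0.01 and did not pass. Without RAM replicate 2, the 7 calls fell to 4 and Srsf4 lost its call. With upper-quartile factors 1 was higher and 16 were lower, and without factors all 18 calls were lower. DESeq2 and limma each called 3 higher and 5 lower.

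Nonsense-mediated decay and the exosome are known to remove spliced snoRNA hosts. Of 36 genes on a list for them, 10 were higher in MAMs, 4 were lower and 22 did not pass, with a median of 0.12. The list also held Larp1, which binds RNAs with a C and T run at their start, among the 10 higher. The 27.8% higher were near the 28.9% of all genes tested, and the 11.1% lower were fewer than the 27.3% of all genes. These counts depended on the scaling, since 7 were higher and 7 were lower both with upper-quartile factors and without factors. Dcp2, the decapping enzyme, had a log2 fold change of 1.18 ± 0.0931 and Smg9, a partner of the kinase Smg1, one of 1.04 ± 0.140 (SE, edgeR, adjusted p of 3.72e-08 and 1.32e-05). Smg1 itself was higher by 0.51, Larp1 by 0.79, and Zfc3h1, which acts with the nuclear exosome, by 0.50. Exosc5, an exosome subunit, was lower with a log2 fold change of -1.49 ± 0.238 (SE, edgeR, adjusted p = 7.38e-05).

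Of 21 genes for proteins that assemble or bind snoRNAs, 2 were higher, 4 were lower and 15 did not pass, with a median of -0.02. Nufip1, an assembly factor, was higher with a log2 fold change of 2.11, and Dkc1, the pseudouridine synthase, was lower with -0.89. Tcof1, a nucleolar protein of ribosomal RNA transcription, was higher by 0.83, nucleolin (Ncl) was lower with -0.26, and Nop56, a core protein of the C/D class, was at -0.02 and did not pass. Of 67 ribosomal protein genes, 3 were higher, 12 were lower and 52 did not pass, with a median of -0.06. Rpl5 was lower with -1.80, Rpl31 was higher with 1.64 and Rpl22l1 was lower with -0.64, all 3 at low shares that can hold reads of processed copies. The call of Rpl5 was lost with limma on FPKM, and that of Rpl22l1 under 10 of 17 alternatives. Rpl4 and Rps3, both at -0.15, did not pass, and Rpl41 was higher with 0.27, a call lost with upper-quartile factors, without factors and with limma. With upper-quartile factors 1 was higher and 30 were lower, without factors 1 was higher and 31 were lower, and with limma on FPKM 3 were higher and 20 were lower.

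Of the nearest protein-coding genes wholly outside the 6 loci, 8 were tested, and 2 were higher, 2 were lower and 4 did not pass. Protein-coding genes that overlap a locus, Zbtb37 for Gas5 and Trim13 and Kcnrg for Dleu2, were not in this list. The 25% called in each direction were near the 28.9% higher and 27.3% lower of all genes tested. Slc3a2, a subunit of amino acid transporters whose locus ends 105 bases from that of Snhg1, had 503 ± 75.7 CPM in MAMs and 208 ± 24.7 in RAMs (SD, n = 5 each), with a log2 fold change of 1.49 ± 0.107 (SE, edgeR, adjusted p = 1.22e-08). Snhg1 itself had a log2 ratio of -0.34 by share and -0.12 with TMM factors. Spryd7, 45952 bases from Dleu2, was higher with 1.12, and Serpinc1, which encodes antithrombin and lies 28558 bases from Gas5, was lower with -2.62. Wdr74 beside Snhg1 was at 0.45 and Trnau1ap beside Snhg12 at -0.29, and neither passed. Rab42 and Dleu7 were not tested, with at most 7 and 11 counts in a library.

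**Figure D5:**
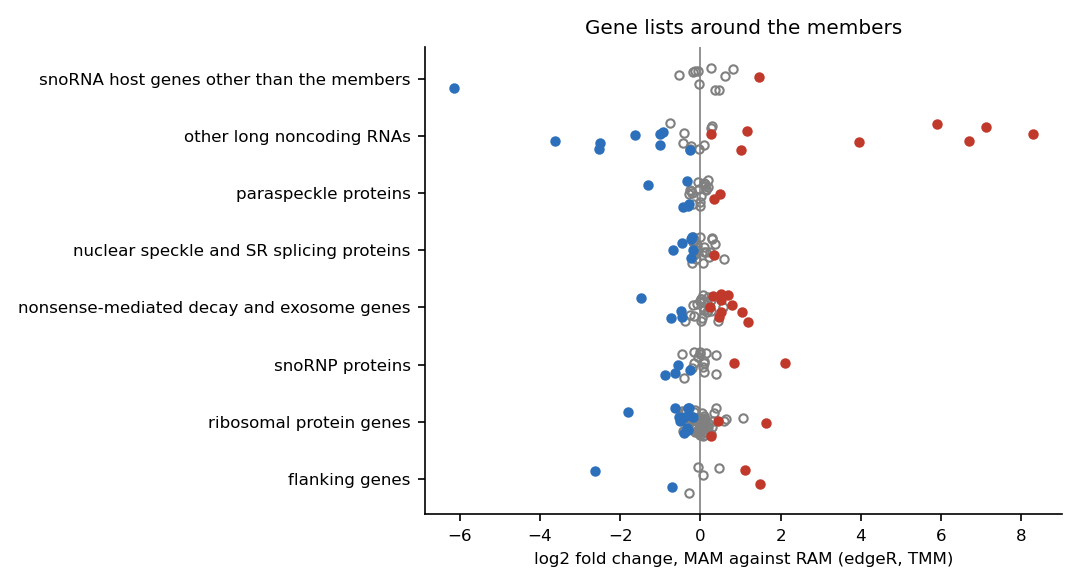
Log2 fold change of MAMs against RAMs by edgeR with TMM factors (horizontal axis) for the tested genes of 8 lists, 1 point a gene, red if higher and blue if lower at an adjusted p under 0.05, grey and open if not. Most points of the protein lists lie near 0, and the other long noncoding RNAs spread on both sides, with 8 higher and 8 lower.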

How the data were processed

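RNA was sequenced from 5 MAM and 5 RAM libraries, and the groups were taken from the sample labels. The authors aligned reads to GRCm38/mm10 with Tophat 2.0.13 and deposited raw counts per gene from htseq-count (HTSeq 0.6.1, UCSC RefGene models), made from total RNA with the Ovation RNA-Seq System. The authors also deposited FPKM from Cufflinks 2.2.1. The strand setting is not given in the sources used here. Counts assigned to no gene, 54.6% to 64.1% of all counts, were left out.

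Shares were CPM of gene counts without Rn45s. A gene entered the test when its mean FPKM reached 1 in MAMs or RAMs, without 51 genes that had 0 counts in every library. A gene low in 1 group could thus enter through the other alone, as Snhg9, Zc3h6 and Serpinc1 did through RAMs. MAMs were compared with RAMs by edgeR's quasi-likelihood test with TMM factors and no covariate (edgeR 4.0.16, R 4.3.3), and p-values were adjusted by Benjamini-Hochberg over all 11571 genes. An adjusted p under 0.05 was called. Per the methods of the study, a sample was an individual mouse or metastases pooled from several mice, and p-values measure the spread between these samples. No 2 libraries were alike within sampling noise. Log2 shares had a prior count of 2, and genes with a mean count of at least 100 entered the comparison of patterns. Errors are SD over libraries, and reads were not tagged by molecule, so counts are not independent molecules.

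The members and gene lists were chosen with earlier results of these data known. Named genes were the 6 members, the sorting markers, the flanking genes, in each list the 3 largest called changes and the 3 most abundant genes, and the 3 genes most like each member in pattern. Some of the flanking genes are not reported here. Positions came from GENCODE M21 and RefSeq (GRCm38.p6). Alternatives were RLE and upper-quartile factors, library totals alone, DESeq2 1.42.0, limma 3.58.1 on log2(FPKM + 1), no filter, a replicate block and each library left out, and for shares also Rn45s or reads outside genes in the denominator. On simulated counts for 11571 genes, edgeR recovered 60% of genes changed 2-fold and 88% of genes changed 4-fold, with 6 false calls. Only 100 genes were changed by each fold, up and down alike, and no shift in scaling between groups was simulated. In the real data 56.2% of genes were called, so the simulation does not measure errors that come from scaling.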

Additional observations from a re-analysis of the deposited data

Results flagged for a closer look

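In 13 of 162 groups of 5 libraries that were examined, the highest or lowest library stood apart from the other 4 by Dixon's 95% criterion, where chance alone would flag about 1 in 20 groups. Among the 6 genes, Dleu2 in MAM replicate 5 was at 18.3 CPM, above 12.8 to 14.4 in the other MAM libraries, and the implied length of Gas5 in MAM replicate 1 was 4644 bases, above 4071 to 4185. Of the small RNAs inside the hosts, Snord22 had 394 counts in MAM replicate 5, where the others had 63 to 132, and Snora16a had 9 counts in MAM replicate 1, where the others had at most 2. For the other noncoding RNAs, Xist was at 2148 CPM in MAM replicate 1, below 2393 to 2433, Snhg9 was at 0.559 in RAM replicate 3, above 0.0456 to 0.146, and Hotairm1 was at 0.0325 in RAM replicate 2 and at 0 in the others. Of the flanking genes, Spryd7 was at 50.3 CPM in MAM replicate 2, above 35.5 to 37.6, Rab42 was at 0.119 in MAM replicate 4 and Dleu7 at 0.205 in RAM replicate 1, with no counts in the other libraries of the group. Of the sorting markers, Itgax was at 215 CPM in MAM replicate 1, above 136 to 151, and Ptprc, which encodes CD45, was at 927 in MAM replicate 5, above 876 to 884, and at 1233 in RAM replicate 1, above 1118 to 1127.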

How the results depend on the processing

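The log2 ratio of Malat1 kept its direction under all 17 alternatives. It moved from 0.93 to 1.15 with TMM, 1.16 with RLE, 1.18 by FPKM and 1.23 with reads outside genes in the denominator. Neat1 reversed to 0.35 by FPKM and moved to -0.30 with reads outside genes. Gas5 moved to 0.33, 0.34, 0.35 and 0.42 under the 4 settings listed for Malat1. Snhg1 reversed to 0.28 by FPKM. With reads outside genes in the denominator, Snhg1 was at -0.023, Snhg12 at 0.079 and Dleu2 at 0.084. Dleu2 was at 0.12 by FPKM. The cause of these changes was not tested. With each library left out in turn, Malat1 ran from 0.86 to 0.99, Neat1 from -0.69 to -0.53, Gas5 from 0.06 to 0.15, Snhg1 from -0.42 to -0.27, Snhg12 from -0.32 to -0.13 and Dleu2 from -0.34 to -0.17. For lists, 1 other snoRNA host was called with DESeq2, with limma and with the replicate block, against 2. Paraspeckle calls were 13 with upper-quartile factors and 14 without factors, speckle calls 17 and 18, and ribosomal protein calls 31 and 32, with 23 in limma. Without 1 library, speckle calls ran from 4 to 10.

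Same-numbered MAM and RAM libraries did not deviate together, with an r between -0.04 and 0.03, so no pairing by number was seen in the counts. Whether same-numbered samples were handled together cannot be decided from this. With the replicate number as a block, 3205 genes were called higher and 3101 lower, against 3344 and 3160. Depth limits the low counts of Mir15a, Mir16-1, the snoRNAs, Snhg9, Rab42 and Dleu7 most, where few counts decide a value.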
